A study of Mus musculus with 27 samples.

Results

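Imprinted genes are expressed mainly from the copy inherited from 1 parent. A list of 37 mouse imprinted genes from 19 clusters or single loci was followed in ribosome-bound RNA of 2 types of striatal projection neuron, named for their dopamine receptors D1 and D2, with and without the histone methyltransferase G9a, after cocaine or saline. The members were chosen by gene symbol, and where a gene had several probe sets, the one brightest on average across 27 arrays was read. Of the 37 genes, 35 had a probe set of their own and 27 were bright enough to be tested, among 12017 tested genes of 18193 gene symbols.

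The RNA was collected by translating ribosome affinity purification, in which a GFP-tagged ribosomal protein (L10a-GFP) marks 1 neuron type and its ribosomes are pulled down with anti-GFP antibodies. D1 mutants carried Drd1-Cre, Drd1-TRAP and floxed G9a on both copies, with 4 cocaine and 3 saline arrays, and D1 controls carried Drd1-TRAP and floxed G9a without Cre, with 4 cocaine and 2 saline arrays. D2 mutants carried Drd2-Cre, Drd2-TRAP and floxed G9a, and D2 controls lacked the Cre, with 4 cocaine and 3 saline arrays in each. Mutants therefore differ from controls by the Cre transgene as well as by G9a, and every control carries the floxed alleles. Cre acts in any cell where its Drd1 or Drd2 driver has been active, so G9a may also be lost outside the striatum. Each array is taken as 1 sample. All animals were male, 2 to 5 months old, on a mixed background of C57BL/6 (the G9a line) and 129/Sv (the BAC transgene line), with 2 generations of backcrossing to C57BL/6. Tissue was taken 2 h after the last of 8 injections, with cocaine at 20 mg/kg/day.

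In an imprinted cluster, DNA methylation set in the egg or sperm marks a control region, and genes on either side are then read from the maternal or the paternal copy. The mark is kept after fertilization by zinc finger proteins such as ZFP57, which binds a methylated hexamer and recruits TRIM28 and histone methyltransferases. Histone methylation by G9a is known, in mouse placenta above all, to take part in silencing the repressed copy of some imprinted genes. Many imprinted genes are active in brain, and some are used differently there. Neurons read Ube3a mainly from the maternal copy, where most other cells read both copies, and they read Grb10 from the paternal copy, where most other tissues read the maternal one. Array values add up both copies, so no value below says which parental copy was read.

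Promoter windows are shown for Plagl1 and Ndn, which rose in G9a mutants of both subtypes, and for Meg3, which had the next largest rise in D2 mutants, so that their CpG content and ZFP57 hexamers can be read from the letters. Each runs from 250 bases before to 50 bases after a RefSeq start on the plus strand of GRCm38.p6, and capitals mark CG dinucleotides. The Plagl1 window lies at chr10:13090582-13090881, the Ndn window at chr7:62348027-62348326, and the first of 2 Meg3 windows at chr12:109540746-109541045.
Plagl1: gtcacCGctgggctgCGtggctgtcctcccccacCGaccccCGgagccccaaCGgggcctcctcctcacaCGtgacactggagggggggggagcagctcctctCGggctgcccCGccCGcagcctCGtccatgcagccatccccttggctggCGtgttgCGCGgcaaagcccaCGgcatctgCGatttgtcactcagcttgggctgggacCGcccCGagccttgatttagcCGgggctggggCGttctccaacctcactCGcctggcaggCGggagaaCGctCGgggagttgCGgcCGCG
Ndn: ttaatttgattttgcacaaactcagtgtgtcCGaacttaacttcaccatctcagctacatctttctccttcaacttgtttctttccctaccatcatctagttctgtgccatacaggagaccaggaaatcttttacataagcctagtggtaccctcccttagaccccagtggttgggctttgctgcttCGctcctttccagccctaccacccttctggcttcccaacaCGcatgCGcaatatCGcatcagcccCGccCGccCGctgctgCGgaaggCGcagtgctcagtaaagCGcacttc
Meg3: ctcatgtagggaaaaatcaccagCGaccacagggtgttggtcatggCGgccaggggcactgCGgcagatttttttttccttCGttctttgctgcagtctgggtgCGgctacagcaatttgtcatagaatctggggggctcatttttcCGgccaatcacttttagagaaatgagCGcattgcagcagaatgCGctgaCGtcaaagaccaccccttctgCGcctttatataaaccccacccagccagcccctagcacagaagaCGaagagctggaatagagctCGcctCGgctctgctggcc

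The Plagl1 window held 26 CG dinucleotides, more than 83.1% of the 32851 promoter windows of the same length in the table. The Ndn window held 11 and the Meg3 window 13, more than 58.6% and 62.1% of all windows. The ZFP57 hexamer TGCCGC, searched on both strands, was found once in the Plagl1 window, once in the Meg3 window and not in the Ndn window. Across the list, 31 of 37 genes had a window, 49 windows in all, some of which overlap. The median CG count was 15 in these windows, against 7 in all windows. The hexamer was in 13 of the 49 windows (26.5%), against 11.6% of all windows. It contains a CG itself, and these shares were not adjusted for the CG count or for overlapping windows. A match describes letters only, and many control regions lie outside such windows.

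Levels are log2 values from robust multi-array averaging (RMA), and a gene was tested when its probe set exceeded 6 in at least 3 arrays. The plot of levels by cluster shows 25 members above 6 on all 27 arrays. Dlk1 exceeded 6 on all 13 D1 arrays but on only 1 of 14 D2 arrays, and Slc38a4 on 13 D1 arrays and on 0 D2 arrays. Both passed the filter through D1 neurons, so their difference between subtypes was built into the choice of tested genes and supports nothing. The other 8 members with a probe set stayed below the filter, with means over all arrays of 3.62 for Mkrn3, 3.70 for Calcr, 3.69 for Peg10, 4.02 for Zim1, 4.58 for Cdkn1c, 4.72 for Asb4, 5.11 for Ascl2 and 5.77 for Phlda2. All 3 listed genes of the Kcnq1 cluster (Ascl2, Cdkn1c and Phlda2) were in this group. H19, the noncoding partner of Igf2, was read only by a probe set shared with another gene and was not used, and no probe set was annotated to Zrsr1.

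**Figure D1:**
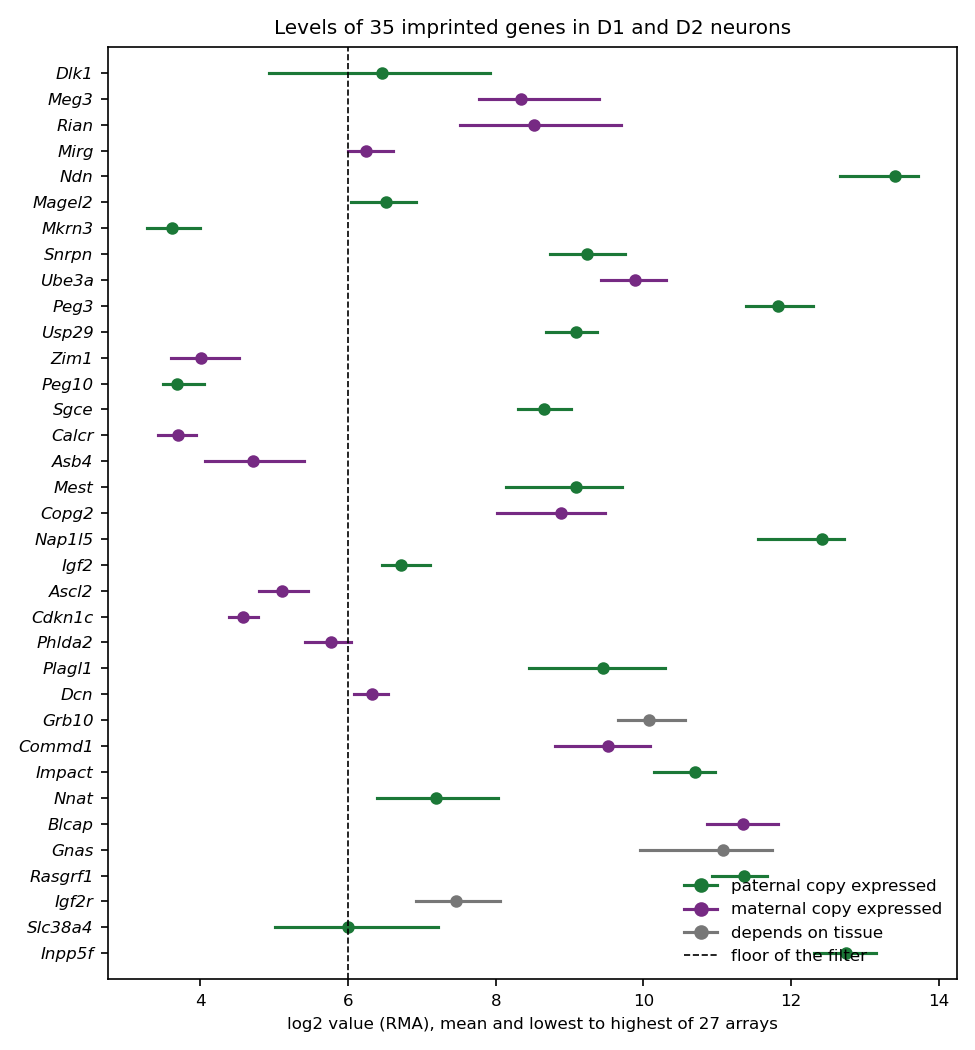
Mean (point) and lowest to highest value (line) over 27 arrays for the 35 imprinted genes with a probe set, in log2 units (RMA), grouped by cluster from Dlk1 at the top, coloured by the parental copy known to be expressed. The dashed line is the filter floor of 6, below which the 8 untested genes have their means, and values of different genes are not on a common scale.

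The arrays carried the features their labels give. Ehmt2, which encodes G9a, was 8.03 to 9.37 in D1 mutants against 9.95 to 10.74 in D1 controls, and 8.68 to 9.38 in D2 mutants against 10.67 to 11.01 in D2 controls, with no overlap. All 8 tested D1 neuron markers were higher and all 8 tested D2 neuron markers lower in D1 than in D2 neurons, in both genotypes. Ebf1 among them averaged under 6 in D2 neurons, and Nt5e, Ttc12 and Upb1 in D1 neurons. For these genes the filter built in the difference. D1 control cocaine replicate 3 had the lowest mean of the D1 markers among D1 arrays (9.89) and a high value of Ttr (9.67), a choroid plexus transcript. Ttr was also high in replicate 3 of the D1 mutants given saline (12.36) and in replicate 3 of the D2 controls given cocaine (11.40), and at most 8.98 in D2 mutants. D2 mutant cocaine replicate 4 has 1 label that calls it a control and 3 that call it a mutant, and its Ehmt2 value lay in the mutant range. In such pulldowns, fewer cells of a type and less RNA per cell cannot be told apart.

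In D1 mutants 2 imprinted genes, Plagl1 and Ndn, had more ribosome-bound RNA than in D1 controls, and 0 had less. Plagl1 encodes a zinc finger transcription factor that restrains cell growth, and Ndn encodes necdin, a MAGE family protein of postmitotic neurons. Both are known to be read from the paternal copy. The call rests on limma with Benjamini-Hochberg adjustment over all 12017 genes, where 3.1% of genes rose and 1.12% fell at an adjusted p under 0.05. At the background share, about 1 of 27 genes would rise. The list was chosen with earlier results of these data known, so no excess can be read from that comparison. The median change of the 27 was 0.09, against 0.01 over all genes, and 19 of them had a positive sign. At an unadjusted p under 0.05 there were 8.

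Plagl1 was 9.63, 9.82 and 9.97 (lowest, median and highest of 7) in D1 mutants, against 8.94, 9.08 and 9.28 in D1 controls (6 arrays). Every mutant array lay above every control array. The change was 0.71 on the log2 scale (SE 0.07, 1.63-fold, adjusted p = 9.07e-08), with 0.69 under cocaine and 0.72 under saline. Ndn was 13.45, 13.62 and 13.72 in D1 mutants and 12.66, 13.27 and 13.45 in D1 controls, so that the ranges touched at 2 decimals without crossing. The Ndn change was 0.47 (SE 0.08, 1.39-fold, adjusted p = 0.000164), with 0.31 under cocaine and 0.63 under saline. The saline value rests on 2 control arrays that differ, at 13.14 and 12.66. Without D1 control cocaine replicate 3 the changes were 0.73 for Plagl1 and 0.48 for Ndn, and without the 3 arrays of high Ttr they were 0.71 and 0.46.

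The same 2 genes rose in D2 neurons, together with Meg3, Ube3a, Commd1 and Rasgrf1, and no member fell. In D2 neurons 8.41% of all genes rose and 3.82% fell, and at the background share about 2 of 27 genes would rise. Here too the list was chosen with earlier results of these data known, so no excess can be read from the counts. The median change of the 27 was 0.13, against 0.02 over all genes, and 11 had an unadjusted p under 0.05. The split between rises and falls depends on scaling, because normalizing the arrays again by cyclic loess gave 4 higher and 1 lower, and centring on the median gave 5 higher and 2 lower. Sgce fell under both of these settings and Igf2r under median centring. Without the 3 arrays of high Ttr, 7 rose and 2 fell, among them the same 6, with Nap1l5 added above and Sgce and Igf2r below.

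In D2 neurons Plagl1 had the largest change of the 27. It was 10.05, 10.15 and 10.29 in D2 mutants, against 8.45, 8.66 and 9.0 in D2 controls (7 arrays each). The groups were separated by more than 1 log2 unit at their nearest arrays. The change was 1.51 (SE 0.07, 2.85-fold, adjusted p = 3.33e-15), with 1.38 under cocaine and 1.64 under saline. A single probe set of the 3 for Plagl1 lay above the floor, and the other pair stayed below 6 on every array, so the result rests on 1 probe set, whose suffix marks probes that may also match other transcripts.

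Ndn was 13.39, 13.58 and 13.61 in D2 mutants and 13.12, 13.29 and 13.34 in D2 controls, again without overlap. The change was 0.29 (SE 0.07, 1.22-fold, adjusted p = 0.00679), and it was 0.20 after cyclic loess with an adjusted p of 0.0543. The 5 Ndn probe sets above the floor on all arrays all had positive changes, from 0.22 to 0.49 in D1 neurons and from 0.20 to 0.32 in D2 neurons.

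Meg3, a maternally expressed long noncoding RNA, was 8.57, 8.82 and 9.4 in D2 mutants and 7.77, 8.38 and 8.65 in D2 controls. The 2 lowest mutant arrays lay within the control range. The change was 0.55 (SE 0.12, 1.46-fold, adjusted p = 0.00284), with 0.88 under cocaine and 0.22 under saline. The 9 Meg3 probe sets above the floor on nearly all arrays changed by 0.09 to 0.58 in D2 mutants, all upward, and by -0.14 to 0.17 in D1 mutants. Its cluster partners Rian (0.21), Dlk1 (0.15) and Mirg (-0.01) did not pass in D2 neurons.

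Ube3a, the ubiquitin ligase of Angelman syndrome that neurons read from the maternal copy, was 9.71, 9.94 and 10.21 in D2 mutants, against 9.43, 9.64 and 9.91 in D2 controls. The ranges overlapped in part. The change was 0.33 (SE 0.08, 1.26-fold, adjusted p = 0.00662). The gene's probe sets went in different directions, with 0.33 and 0.15 on a pair of those above the floor and -0.29 on another, and their mean changed by 0.03 (adjusted p = 0.882). The direction for Ube3a as a whole is therefore uncertain. Snhg14, the long noncoding host gene whose far end runs antisense to Ube3a, was 7.0, 7.86 and 8.19 in D2 mutants and 6.74, 6.95 and 7.40 in D2 controls. Its change was 0.76 (SE 0.20, adjusted p = 0.0121).

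Commd1, a copper and protein trafficking factor read mainly from the maternal copy in brain, was 9.74, 9.88 and 10.09 in D2 mutants and 9.29, 9.54 and 9.83 in D2 controls. It changed by 0.35 (SE 0.09, 1.27-fold, adjusted p = 0.00942), and a second probe set of the gene changed by 0.34. Rasgrf1, a Ras exchange factor of neurons, was 11.15, 11.47 and 11.68 in D2 mutants and 10.93, 11.15 and 11.31 in D2 controls. Its change of 0.26 (SE 0.08, adjusted p = 0.0424) lost the call in 15 of 38 alternative settings. In 10 of these, 1 array was left out, which was D1 mutant cocaine replicate 2, D2 mutant cocaine replicate 1, 3 or 4, D2 mutant saline replicate 1 or 3, D2 control cocaine replicate 1 or 3, or D2 control saline replicate 1 or 2. Both genes overlapped between genotypes. Without D2 mutant cocaine replicate 4, whose labels conflict, the other 5 genes kept their calls, Plagl1 with a change of 1.53, and Rasgrf1 changed by 0.25 (adjusted p = 0.069).

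**Figure D2:**
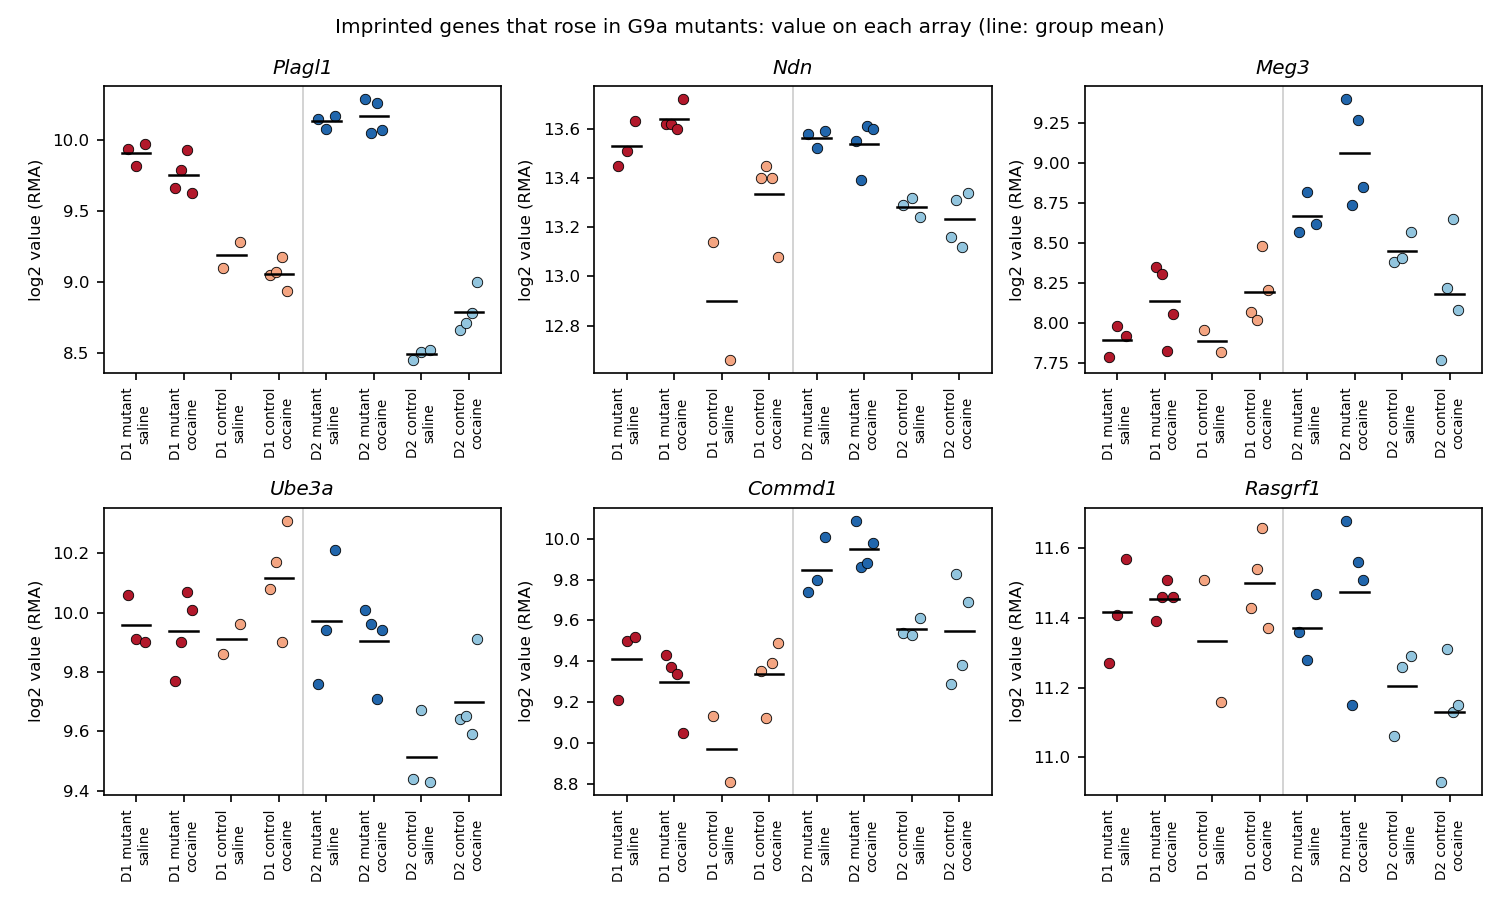
Log2 value (RMA) on each array for the 6 imprinted genes that rose in G9a mutants of either subtype, by subtype, genotype and drug, with a line at the group mean. Plagl1 mutants sit at 9.63 and above, over all controls (at most 9.28), while for Ube3a and Rasgrf1 the D1 groups overlap throughout.

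Markers of other cell types also moved with genotype in D2 neurons, where 8.41% of all genes rose. Of 12 listed oligodendrocyte markers 9 were tested and 5 rose, and their mean level was 7.61 to 8.01 in D2 mutants against 6.63 to 7.44 in D2 controls. Of 9 listed D1 neuron markers 8 were tested and 4 rose, with means of 7.64 to 7.91 in D2 mutants against 7.15 to 7.67 in D2 controls. Of 12 listed choroid plexus and ependymal markers 4 were tested and 2 rose, with means of 5.46 to 5.67 in D2 mutants against 5.10 to 5.78 in D2 controls. Among the 4, Kl averaged 6.29 in D1 and 7.02 in D2 mutants, against 4.71 and 4.79 in controls, under the floor of 6. Kl was tested through the mutants, so its difference was built in by the filter and supports nothing. Of 6 tested astrocyte markers 1 rose, with means of 6.86 to 7.17 in D2 mutants against 6.41 to 6.97 in D2 controls. In D1 neurons 1 of 9 oligodendrocyte markers rose, and the means were 6.82 to 7.42 in mutants against 6.77 to 7.20 in controls. Of the choroid plexus markers 1 of 4 and 0 of 6 astrocyte markers rose in D1 mutants. Of the interneuron markers, 1 of 2 tested cholinergic and 1 of 8 tested GABA interneuron genes rose in D2 mutants. Of the remaining lists, 1 of 2 tested vascular, 1 of 2 fibroblast, 1 of 4 cortical and 0 of 2 microglia markers rose in D2 mutants. Their part in the changes of the imprinted genes was not tested.

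By expressed copy, 2 of 16 tested paternally expressed genes, 0 of 8 maternally expressed genes and 0 of 3 genes with tissue-dependent copies rose in D1 neurons, beside 3.1% of all genes. At an unadjusted p under 0.05 in limma there were 6, 2 and 0. In D2 neurons 3 of 16 paternally expressed genes (Plagl1, Ndn and Rasgrf1) and 3 of 8 maternally expressed genes (Meg3, Ube3a and Commd1) rose, and 0 of 3 in the tissue-dependent class, beside 8.41% of all genes. At an unadjusted p under 0.05 in limma there were 7, 3 and 1. The Ube3a call depends on the probe set, as given above. With so few genes in a class, the classes were not compared. The median change in D2 neurons was 0.13 in the paternal class and 0.11 in the maternal class.

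By cluster, 2 members passed in the Prader-Willi and Angelman cluster in D2 neurons, Ndn and Ube3a. The Ube3a call depends on the probe set, and its direction is uncertain, so no joint rise of the cluster can be read from the pair. Its close neighbour Magel2, another MAGE family gene, had changes of 0.18 in D1 neurons (adjusted p = 0.328) and 0.10 in D2 neurons, and Snrpn, a spliceosome protein gene, had 0.07 and -0.003. Snrpn was read by the 1 probe set of its own, and 6 that it shares with other genes were not used. In the Peg3 cluster, Peg3, a zinc finger gene, changed by 0.25 in D2 neurons (adjusted p = 0.0522) and Usp29 by 0.16. In the Nnat and Blcap pair, where Nnat lies within Blcap, the D1 changes were 0.26 for Nnat and 0.36 for Blcap (adjusted p = 0.0658), and the D2 changes were -0.37 and -0.09. Sgce, epsilon-sarcoglycan, changed by -0.23 in D2 neurons (adjusted p = 0.0785), and Igf2r, the receptor that clears IGF2, by -0.28 (adjusted p = 0.071). The changes of Mest, Copg2, Dcn, Igf2 and Impact were between -0.10 and 0.14 in both subtypes. These are means over the drugs. In D1 neurons Impact changed by -0.40 under saline and 0.19 under cocaine, Igf2r by -0.57 and 0.29, and Commd1 by 0.44 and -0.04. The saline values rest on 2 control arrays, and the split by drug was not tested. Inpp5f had changes of 0.20 and 0.15 in D1 and D2 neurons, Nap1l5 0.15 and 0.21, Gnas 0.09 and 0.15, Grb10 -0.02 and 0.13, and Slc38a4 0.19 and 0.01. Dlk1 had -0.48 in D1 neurons (adjusted p = 0.283), where its arrays overlapped.

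**Figure D3:**
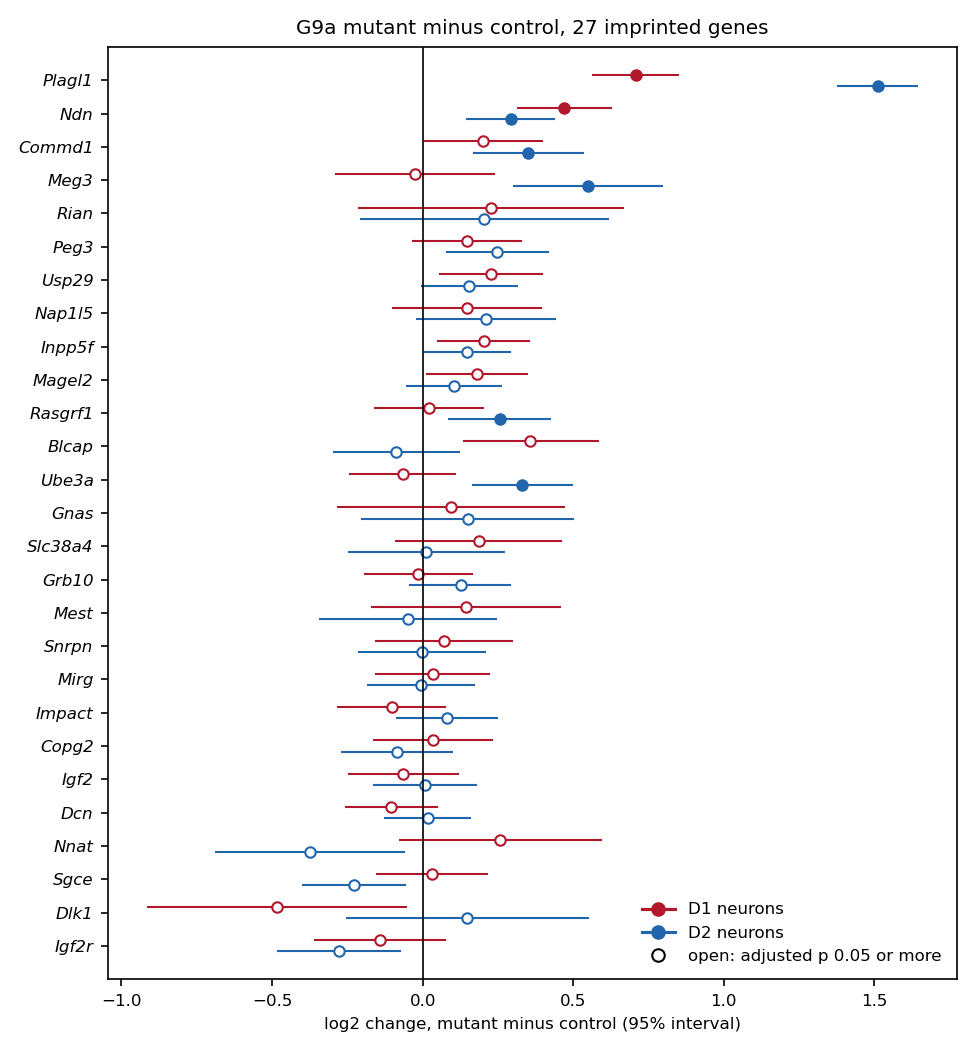
Log2 change, mutant minus control, with its 95% interval for the 27 tested imprinted genes in D1 neurons (red) and D2 neurons (blue), ordered by the sum of both changes. Filled points passed an adjusted p under 0.05, which were 2 genes in D1 neurons and 6 in D2 neurons.

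Genes next to the 6 were read from the order of genes in the reference table, with up to 3 tested genes on either side. In D1 neurons 0 of 10 unlisted neighbours of Plagl1 and Ndn passed in limma, with 1 at an unadjusted p under 0.05. In D2 neurons 7 of 29 rose and 1 fell, beside 8.41% and 3.82% of all genes. Beside Plagl1, Sf3b5 changed by 0.23 (adjusted p = 0.0416) and Ltv1 by 0.33 (adjusted p = 0.0492), calls that were lost in 15 and 22 of 38 alternative settings. Beside Ube3a, the pigment gene Oca2 changed by 1.02 and the GABA-A receptor subunit gene Gabra5 by -0.62 (adjusted p = 0.00468). Fam161a beside Commd1 changed by 0.36, and Zic1 (1.399) and Dipk2a (0.64) beside Rasgrf1 rose too. The neighbours of Meg3 and Ndn did not pass.

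**Figure D4:**
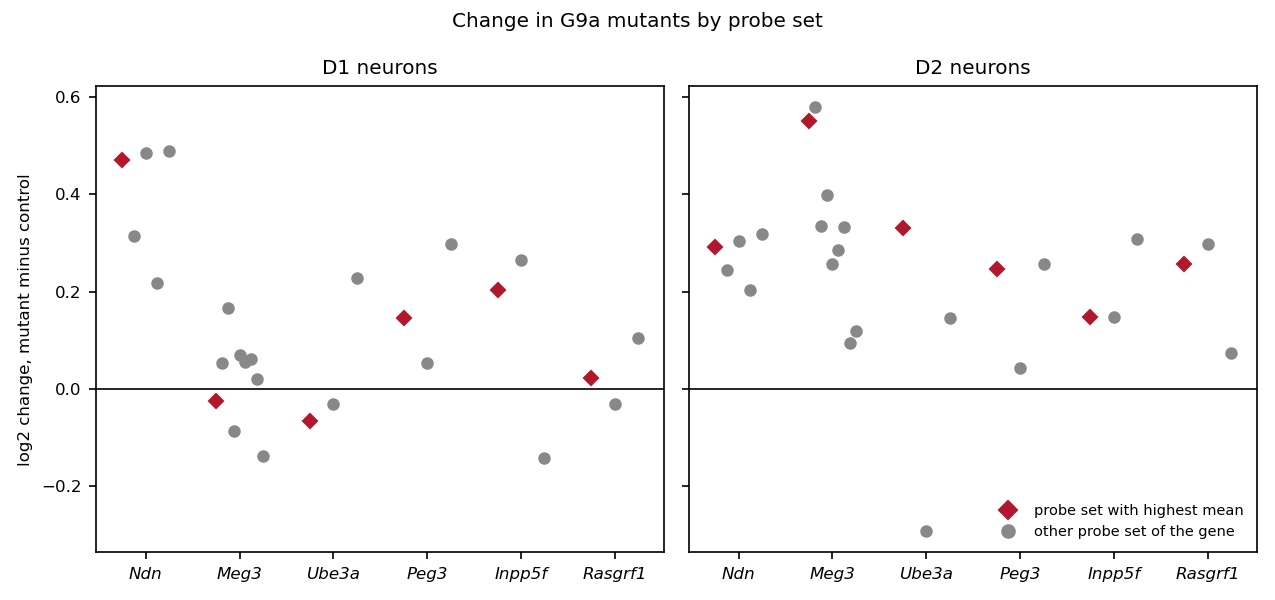
Log2 change, mutant minus control, of each probe set with values above 6 on at least 20 arrays for 6 imprinted genes with several such probe sets, in D1 neurons (left) and D2 neurons (right). The 5 Ndn probe sets lie at 0.20 to 0.49 in both panels, the 9 Meg3 probe sets lie above 0 in D2 neurons, and Ube3a probe sets lie on both sides of 0.

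Among the 27, the test of a different genotype effect in the 2 subtypes was passed by Plagl1, and by no other member, with 7 members at an unadjusted p under 0.05. Taken with its sign, the change in D2 neurons minus that in D1 neurons was above 0 for 0.657% and below 0 for 0.333% of all genes at an adjusted p under 0.05. The Plagl1 rise was larger in D2 neurons by 0.80 (SE 0.10, adjusted p = 1.43e-05). Its order between subtypes also turned. D1 minus D2 was -0.32 in mutants (adjusted p = 0.000372), where every D1 array was below every D2 array, and 0.49 in controls (adjusted p = 1.25e-05), where the ranges overlapped. Using the mean of all 3 Plagl1 probe sets, of which 2 lie below the floor, the difference of effects was 0.25 (adjusted p = 0.113), and D1 minus D2 in mutants was -0.06 (adjusted p = 0.323). Differences did not pass for Meg3 (0.57, 95% interval 0.21 to 0.94, adjusted p = 0.136), Ube3a (0.40, 0.15 to 0.64, adjusted p = 0.122), Nnat (-0.63, -1.09 to -0.17, adjusted p = 0.213) and Blcap (-0.45, -0.76 to -0.14, adjusted p = 0.182). Without D2 control cocaine replicate 3, an array with high Ttr (11.40), the Meg3 difference was 0.65 (adjusted p = 0.047).

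D1 and D2 neurons of mutants differed in 15 of 27 imprinted genes, with 7 higher (16.6% of all genes) and 8 lower (25.8% of all genes) in D1 neurons. In controls 16 of 27 differed, with 8 higher (11.9% of all genes) and 8 lower (17.1% of all genes). The median difference over members was -0.01 in mutants and -0.05 in controls, against -0.04 and -0.03 over all genes. These counts include Dlk1 and Slc38a4. The mutant and control comparisons share no array. Both used the same fit.

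The genes higher in D1 neurons of both genotypes were Dlk1, Slc38a4, Rian, Copg2 and Grb10. Dlk1, a Notch-related membrane protein, was 6.63, 7.20 and 7.51 in D1 mutants against 5.20, 5.53 and 7.05 in D2 mutants, and 7.15, 7.72 and 7.92 in D1 controls against 4.94, 5.62 and 5.74 in D2 controls. The D2 mutant array at 7.05 was cocaine replicate 4, the array with conflicting labels, and the other 6 were at most 5.94. D1 minus D2 was 1.41 in mutants, 1.59 without that array, and 2.05 in controls. A second Dlk1 probe set gave 0.21 in mutants and 0.36 in controls. Slc38a4, an amino acid transporter, differed by 1.46 in mutants and 1.29 in controls, with its D2 arrays at 5.01 to 5.58, under the floor. Values under the floor limit the size of both differences.

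Copg2, a coatomer subunit read from the maternal copy, was 9.08, 9.31 and 9.48 in D1 mutants against 8.01, 8.52 and 8.74 in D2 mutants, and 9.15, 9.25 and 9.35 in D1 controls against 8.42, 8.55 and 8.79 in D2 controls. No D1 array overlapped a D2 array of its genotype. Grb10, a growth factor receptor adaptor, was higher in D1 neurons by 0.31 in mutants (adjusted p = 0.00374), without overlap, and by 0.45 in controls (adjusted p = 0.000408). The Copg2 difference was 0.80 in mutants (adjusted p = 1.92e-07) and 0.68 in controls (adjusted p = 1.07e-05). Mest, its paternally expressed partner whose end it overlaps, had the opposite sign, with -0.24 in mutants (adjusted p = 0.188) and -0.43 in controls (adjusted p = 0.0353). The Mest call in controls was lost without D1 control saline replicate 1 or 2, D2 control cocaine replicate 2 or D2 control saline replicate 3, and its adjusted p reached 0.425 over all settings.

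Within the Dlk1 and Meg3 cluster, Rian and Meg3 differed between subtypes of mutants with opposite signs. Rian, a noncoding host of small nucleolar RNAs, was higher in D1 neurons by 0.92 in mutants (adjusted p = 0.000665) and by 0.90 in controls (adjusted p = 0.00253). Meg3 was lower in D1 neurons of mutants by 0.85 without overlap (difference -0.85, adjusted p = 4.66e-06), and its difference in controls was -0.28 (adjusted p = 0.112), with 0.01 under cocaine and -0.56 under saline. The control difference passed with the mean of all probe sets (-0.29, adjusted p = 0.0105), with array weights (-0.37, adjusted p = 0.0117) and when replicate 1 of the D2 controls given cocaine was left out (-0.34, adjusted p = 0.0362). Mirg, a host of microRNAs, was 6.00 to 6.61 throughout, close to the floor.

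The genes lower in D1 neurons of both genotypes were Gnas, Commd1, Snrpn, Igf2r and Inpp5f. Gnas, whose main product is the stimulatory G protein alpha subunit, was 9.95, 10.81 and 11.24 in D1 mutants against 11.45, 11.61 and 11.74 in D2 mutants, and 10.08, 10.64 and 11 in D1 controls against 11.35, 11.40 and 11.52 in D2 controls. No D1 array reached a D2 array of its genotype. The D1 arrays were more spread, with an SD of 0.49 against 0.11 in mutants and 0.44 against 0.06 in controls. The mean of the cortical excitatory markers was 5.88 on the lowest D1 mutant array for Gnas and 7.33 on the highest. It was 5.24 on the lowest D1 control array and 6.73 and 6.76 on those at 11. The part of cortical RNA in this spread was not tested. Of 5 Gnas probe sets, all but this 1 did not exceed 6 on any array. The difference was -0.91 in mutants (adjusted p = 0.000151) and -0.85 in controls (adjusted p = 0.000982). In mutants Commd1 differed by -0.55, Snrpn by -0.38 and Inpp5f, an inositol phosphatase gene, by -0.32. In controls the same genes differed by -0.40, -0.46 and -0.37, with Snrpn again read by 1 probe set. The 2 Igf2r probe sets disagreed, with -0.35 and 0.11 in mutants and -0.49 and 0.15 in controls.

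Nnat, a small membrane protein of developing neurons, had a D1 minus D2 difference of -0.08 in mutants (adjusted p = 0.721) and of -0.71 in controls (adjusted p = 0.00185). The Ube3a difference was 0.01 in mutants (adjusted p = 0.942) and 0.41 in controls (adjusted p = 0.000876), where its 3 probe sets above the floor in most arrays all had positive differences. In mutants the other pair of these probe sets had differences of 0.98 and 0.56, and the mean of all probe sets differed by 0.25 (adjusted p = 0.0455), so the Ube3a probe sets do not settle whether the subtypes of mutants differ. Of the remaining genes called in 1 genotype, Blcap (0.36), Magel2 (0.23) and Impact (-0.24), a regulator of the kinase GCN2, passed in mutants, and Rasgrf1 (0.25) and Sgce (-0.27) in controls. Magel2 lost its call without D1 mutant saline replicate 2 or D2 mutant saline replicate 3, and Impact without D1 mutant saline replicate 3. Rasgrf1 lost it in 6 and Sgce in 5 of the settings that leave out 1 array. Peg3, Usp29, Nap1l5, Igf2, Dcn, Ndn and Mirg did not pass in either genotype. By expressed copy, 3 of 16 paternally expressed genes were higher and 4 lower in D1 neurons of mutants. Of 8 maternally expressed genes 3 were higher and 2 lower, beside 16.6% higher and 25.8% lower over all genes. In controls, 4 of 16 paternally expressed genes were higher and 5 lower in D1 neurons. Of 8 maternally expressed genes 3 were higher and 1 lower, beside 11.9% higher and 17.1% lower over all genes. Dlk1 and Slc38a4 are 2 of the paternal genes counted as higher in each genotype, and their difference was built in by the filter, so these counts say nothing of the parental copy. All 3 genes with tissue-dependent copies passed in both genotypes, Grb10 upward and Gnas and Igf2r downward. The 2 Igf2r probe sets had opposite signs, and 3 genes are too few to describe a class.

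Markers of other cell types differed between the subtypes as well. Over all genes, 16.6% were higher and 25.8% lower in D1 neurons of mutants, and 11.9% and 17.1% in controls. Of the tested oligodendrocyte markers, 6 of 9 in mutants and 5 of 9 in controls were lower in D1 than in D2 neurons. Of 6 listed cholinergic interneuron markers 2 were tested, and both were lower in D1 neurons of each genotype. List means were 4.26 to 4.59 in D1 mutants against 5.47 to 5.85 in D2 mutants, and 4.44 to 4.54 in D1 controls against 5.02 to 5.56 in D2 controls. The 2 tested, Lhx8 and Slc18a3, averaged under 6 in D1 neurons and passed the filter through D2 neurons. Their difference was therefore built in by the filter and supports nothing. Of the cortical excitatory markers, 4 of 4 in mutants and 3 of 4 in controls were higher in D1 neurons, with list means of 5.27 to 7.33 in D1 mutants against 5.07 to 5.35 in D2 mutants, and of 5.24 to 6.89 in D1 controls against 4.87 to 5.24 in D2 controls. Of 8 GABA interneuron markers, 5 were higher and 2 lower in D1 neurons of mutants, where Th, also an imprinted gene, was among the lower. In controls 5 were higher and 0 lower, and 5 had an unadjusted p under 0.05 in limma. Of 6 astrocyte markers, 0 passed in mutants, with 1 at an unadjusted p under 0.05, and 2 were higher in controls. Of the 4 choroid plexus markers 1 was lower in mutants and 0 passed in controls, with 0 at an unadjusted p under 0.05. Fibroblast markers were lower for 1 of 2 in each genotype, vascular markers for 1 of 2 in mutants and 0 of 2 in controls, and microglia markers for 0 of 2 in each. Ugt8a (oligodendrocyte), Pdgfra (fibroblast), Lhx6 (GABA interneuron) and Rgs5 (vascular) also averaged under 6 in D1 neurons of both genotypes. Neurod6 (cortical) did so in D2 neurons. The filter limits the counts of their lists in the same way. The part of these cell types in the differences of the imprinted genes was not tested.

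**Figure D5:**
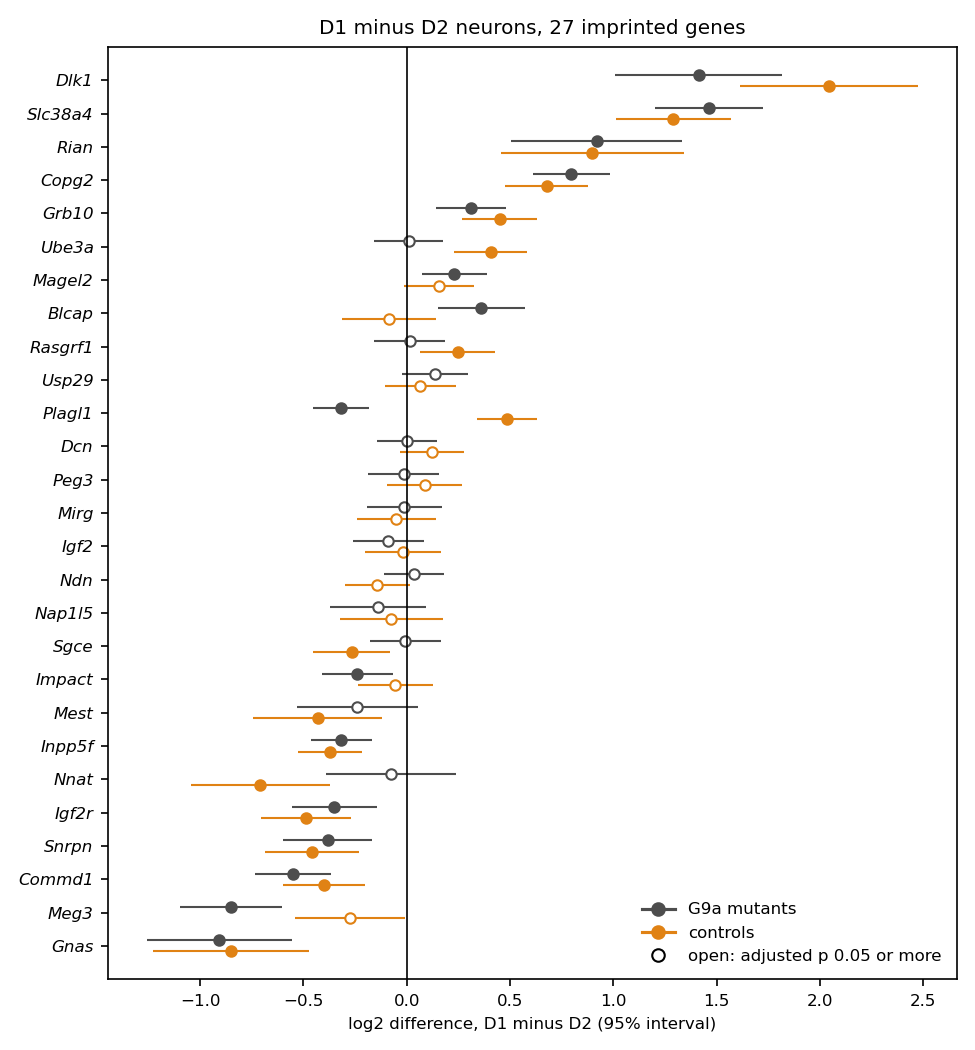
Log2 difference, D1 minus D2 neurons, with its 95% interval for the 27 tested imprinted genes in G9a mutants (dark) and controls (orange), ordered by the sum of both. Dlk1, Slc38a4, Rian, Copg2 and Grb10 lie right of 0 in both genotypes, and the Plagl1 points lie at -0.32 in mutants and 0.49 in controls.

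Repeated cocaine changed none of the 27 imprinted genes past the threshold in limma in any of the 4 combinations of subtype and genotype. The shares of all genes called in either direction were 0.0915% in D1 mutants, 0.0666% in D1 controls, 0% in D2 mutants and 0.133% in D2 controls. At an unadjusted p under 0.05 there were 4, 4, 3 and 2 members. The smallest adjusted p belonged to Ndn in D1 controls (0.43, adjusted p = 0.136). Igf2r had opposite signs in D1 mutants (0.36) and D1 controls (-0.50), neither past the threshold.

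Mest, a paternally expressed gene whose protein has a hydrolase fold, had the largest difference when the 4 combinations were averaged. In D1 mutants it was 9.51, 9.37, 9.20 and 9.01 after cocaine, against 8.69, 8.72 and 8.43 after saline. In D2 mutants it was 9.5, 9.71, 9.41 and 9.05 after cocaine, against 8.99, 8.98 and 8.88 after saline. In both mutant groups every cocaine array lay above every saline array. In D1 mutants this also held for Peg3, Impact and Inpp5f. For Impact it held in D2 mutants too (10.89 to 10.97 after cocaine, 10.66 to 10.74 after saline), and in D2 controls. The share of all genes that split so was not counted, so the splits set no member apart.

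In D1 controls Mest was 9.38, 9.15, 8.14 and 9.32 after cocaine, against 8.71 and 8.49 after saline, where the array at 8.14 is replicate 3, the array with the lowest D1 markers. In D2 controls it was 9.25, 9.38, 9.32 and 9.25 after cocaine, against 9.03, 9.02 and 9.44 after saline. Averaged over the 4 combinations, a contrast added after the data were seen, the difference was 0.42 (SE 0.10, adjusted p = 0.0582), where 0.799% of all genes passed in either direction and 0 of 27 members did, with 4 at an unadjusted p under 0.05. Without D1 control cocaine replicate 3 it was 0.49 (adjusted p = 3e-04), with 0.66 in D1 mutants (adjusted p = 0.0311) and 0.69 in D1 controls (adjusted p = 0.0444). The array left out held the lowest Mest value of all 27, so these values are no support of their own. In D1 mutants the difference is 0.66 with all arrays too (adjusted p = 0.199), and only the shared estimate of spread changed. Mest has 1 probe set on the array.

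Of 50 further imprinted genes, 25 were tested. In D1 mutants 3 rose and 0 fell, beside 3.1% and 1.12% of all genes. In D2 mutants 5 rose and 1 fell, beside 8.41% and 3.82% of all genes. Th, tyrosine hydroxylase, whose gene lies at the edge of the Kcnq1 cluster, was 7.12, 7.37 and 7.80 in D1 mutants against 5.85, 6.28 and 7.08 in D1 controls, and 7.54, 7.96 and 9.54 in D2 mutants against 6.48, 6.60 and 6.78 in D2 controls. It changed by 0.99 in D1 neurons (adjusted p = 0.00161) and by 1.46 in D2 neurons (adjusted p = 2.18e-06). Ddc, the next enzyme of dopamine synthesis and a neighbour of Grb10, changed by 1.34 in D2 neurons (adjusted p = 0.000303) and by 0.76 in D1 neurons (adjusted p = 0.112). Klf14 (0.30) and Gpr1 (0.39) also rose in D1 mutants, and Ppp1r9a (0.31), Qpct (0.62) and Gpr1 (0.39) in D2 mutants, where Bcl2l1 fell (-0.20, adjusted p = 0.0223). Gpr1 lay near the floor of 6, with means of 6.33 in D1 and 6.08 in D2 mutants, against 5.93 and 5.68 in controls. The filter itself could favour its rise. In D1 mutants the Gpr1 call was lost in 12 of 37 and the Klf14 call in 7 of 38 alternative settings. Between subtypes of controls 1 further imprinted gene was higher and 3 were lower in D1 neurons, beside 11.9% and 17.1% of all genes. They were Zdbf2 (0.85), Ampd3 (-0.77), Ddc (-1.07) and Tssc4 (-0.22, lost in 4 of 37 alternative settings). Between subtypes of mutants 3 were higher and 6 lower, beside 16.6% and 25.8%. Those of smallest p in limma were Ampd3 (-0.76), Zdbf2 (0.785), Ddc (-1.65) and Gab1 (-0.45). After cocaine over all 4 combinations Zdbf2 was higher by 0.34 (adjusted p = 0.0119).

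Of 21 genes that set or keep imprints or belong to the G9a complex, 15 were tested. In mutants the only one lower in both subtypes was Ehmt2 itself, by 1.79 in D1 and 1.82 in D2 neurons (changes -1.79 and -1.82). Hdac1, a histone deacetylase, was lower in D1 mutants (-0.52, adjusted p = 0.000742) and changed by -0.21 in D2 mutants (adjusted p = 0.138). Ehmt1, the partner of G9a, did not pass with genotype (-0.30 in D1 and -0.13 in D2 neurons) and was lower in D1 than in D2 neurons by 0.67 in mutants and 0.49 in controls (differences -0.67 and -0.49), where the call in controls was lost in 18 of 37 alternative settings. Hdac1 (-0.415), Setdb1 (-0.233) and Smchd1 (-0.266) were also lower in D1 than in D2 neurons of mutants. That made 4 of 15 lower in mutants, beside 25.8% of all genes, and 1 of 15 in controls, beside 17.1%. Trim28, Dnmt1, Dnmt3a and Ctcf were tested and did not pass with genotype in either subtype. Zfp57 was below the filter.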

How the data were processed

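Ribosome-bound RNA of 27 samples was measured on Affymetrix whole-genome mouse arrays. Per the labels, mRNA bound to tagged ribosomes was amplified before hybridization. The deposited values are log2 RMA values, made with Expression Console 1.1 (Affymetrix) according to the submitters' processing notes, and RMA's quantile step hides any global shift. Of 45101 probe sets, 64 were controls, 34945 had 1 gene symbol, 932 several and 9160 none in the platform annotation. The probe set with the highest mean stood for each gene, and joint probe sets were not used. Genes above 6 on at least 3 arrays (12017 of 18193) were fitted with limma 3.58.1 in R 4.3.3 over 8 groups of subtype, genotype and drug, averaging drugs for genotype and subtype contrasts, with Benjamini-Hochberg adjustment over all tested genes. The number of arrays limits precision. The labels give 2 to 4 mice per genotype and drug, so mice are taken as the replicates.

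Members and gene lists were chosen with earlier results of these data known. Members past the threshold are named, others where their cluster is described, and of 2 further lists the up to 4 passing genes of smallest p in each contrast. Gpr1 in D2 mutants, Bcl2l1, Zfp57, Trim28, Dnmt1, Dnmt3a and Ctcf fall outside that rule and were named after their values were seen. Neighbours, up to 3 tested genes on either side, came from the gene order in a RefSeq table (GRCm38.p6). Promoter windows are RefSeq's, of the same build. Replicate numbers showed no clear pairing of samples. Same-number residual correlations had medians of 0.019 in D1 and -0.007 in D2 neurons, against 0.002 and -0.013 for different numbers. Of same-number pairs 6 of 16 and 5 of 19 were over 0.1, against 13 of 46 and 10 of 54 of the others. So few pairs do not settle whether samples were paired. D2 mutant cocaine replicate 4 was grouped by its title and genotype labels. The smallest mean difference between any 2 arrays was 0.137, so no array was a copy of another. The fit was tested on simulated data. Alternatives were other probe set rules, filters, normalizations, weights, covariates and left-out arrays.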

Additional observations from a re-analysis of the deposited data

Results flagged for a closer look

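Among the 108 member and group combinations with 4 arrays that were tested, 4 had an array far from the others, and chance gives about 1 in 20 groups. In D1 controls given cocaine, replicate 3 had 11.55 for Nap1l5, where the others had 12.52 to 12.56, and 10.89 for Blcap, where the others had 11.47 to 11.49. It is also the array with the lowest D1 markers, whose part was not tested. In the same group, replicate 4 had 13.08 for Ndn, where the others had 13.40 to 13.45. In D1 mutants given cocaine, replicate 1 had 12.41 for Nap1l5, where the others had 12.56 to 12.58. The genotype effect on Plagl1 was larger in D2 than in D1 neurons by 0.80, by a test of that difference.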

How the results depend on the processing

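No call turned its direction in the alternatives run, for the imprinted genes of the list or for the passing genes of the 2 further lists and the passing neighbours. The calls of the listed genes held in 1418 combinations of call and setting and were lost in 61. Those of the other genes held in 1342 and were lost in 113. With the mean of all probe sets of a gene, 0 members passed the difference between subtypes (1 as reported), with limma, and 9 passed D1 minus D2 in mutants (15 as reported, 8 of them shared). With array weights, 4 members rose in D1 mutants (2 as reported), 2 passed the difference between subtypes, and cocaine gave 1 in D1 mutants, 2 in D1 controls and 1 over all groups (0 as reported in each). The replicate block, on numbers that showed no clear pairing, gave 7 for D1 minus D2 in controls (16 as reported), 8 in mutants and 1 for cocaine over all groups. Cocaine over all groups, a contrast chosen after seeing the data, also gave 1 (Mest) with median centring and without the arrays whose Ttr exceeded 9.5. Leaving out 1 array gave 2 to 3 members in D1 mutants, 5 to 8 in D2 mutants, 1 to 2 for the difference between subtypes, 14 to 16 for D1 minus D2 in each genotype, and 0 to 1 for cocaine in D1 mutants, in D1 controls and over all groups. The 8 in D2 mutants came without D1 control cocaine replicate 3. For cocaine the 1 gene was Mest, without D1 control cocaine replicate 3, and over all groups also without D1 mutant cocaine replicate 4, D2 control saline replicate 3 or D2 mutant cocaine replicate 4. The cause was not tested. With no filter, Asb4 passed D1 minus D2 in both genotypes and Calcr in controls, both below the floor.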
